A study of Drosophila melanogaster with 6 samples.

Results

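The receptors for neuropeptides described here are 33 *Drosophila* genes, picked by symbol from a list of G protein-coupled receptors for secreted peptides, out of 16493 genes counted in single cells of the adult fly brain. The list runs from *AstA-R1* to *TrissinR*, every symbol was found in the feature list, and each of the 33 genes passed the filter on low counts when neuron-like cells were summed per library. Neuropeptides are cut from precursor proteins, are stored in dense-core vesicles and often act at a distance from the cell that releases them. Their receptors couple through heterotrimeric G proteins to cyclic AMP, calcium and other second messengers. In the fly brain they are best known for tuning sleep, feeding, mating and daily rhythms.

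Single-cell 3′ libraries were made from dissociated brains of flies aged for 10 days, and each library pooled the brains of 20 male and 20 female flies. There were 3 control libraries, from w1118 flies, and 3 libraries from flies with the genotype Appl[d] w[*], called Appl- here, in which the central portion of *Appl* is deleted. *Appl* encodes the fly ortholog of the amyloid precursor protein. The genotypes are given with different strain names, so the effect of the deletion and that of the strain background cannot be told apart. No other allele, transgene or treatment is given for either group, and p-values below measure the spread between pools of flies.

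Total counts ran from 11282730 to 56384733 unique molecular identifiers (UMIs, 1 for each captured transcript) per library. Of 67362 barcodes, 25188 showed 200 or more genes and no more than 10% of counts from mitochondria and were kept as cells, 3154 to 6461 per library. Control replicate 1 stood apart, with 84.7% of its barcodes above the mitochondrial limit against 31.8 to 63.9% in the other libraries. Between 2 and 16 barcodes were shared by each pair of libraries. The cells fell into 43 clusters, formed without the receptor genes, of which 39 carried neuron markers and are called neuron-like (24187 cells, 3096 to 6306 per library). A single glia-like cluster held 324 cells, 29 to 82 per library. Levels are given as CPM, the UMIs of a gene per 1000000 gene UMIs. *Appl* itself was at 2063, 2316 and 2058 CPM over all cells of the control libraries and at 205, 255 and 233 CPM in the Appl- libraries (log2 change -3.22, SE 0.12). The exons that the deletion leaves in place can still give 3′ reads.

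The 33 receptor genes together gave 86282 UMIs in neuron-like cells, and their sum lay between 964 and 1158 CPM in every library. A 3′ library counts each transcript at its end, so levels of different genes were not divided by gene length. CPM over neuron-like, glia-like or all cells are scaled by the TMM factors of edgeR, and CPM within single clusters, in sums over the receptor genes and in the comparison of neuron-like with glia-like cells are plain shares of gene UMIs. A few receptors carried most of the signal. The 10 highest genes held 75.1% of the receptor UMIs and the leading pair 29.9%. There were 7 genes above 50 CPM, 15 between 10 and 50 and 11 below 10.

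*SPR*, which encodes the receptor for sex peptide and for myoinhibitory peptides (X:5446656-5494012, plus strand, assembly BDGP6.54), had the highest level in neuron-like cells. Its CPM was 190, 195 and 220 in the control libraries and 174, 142 and 153 in the Appl- libraries. The ranges did not overlap, yet the difference missed the threshold (log2 change -0.37, SE 0.11, edgeR quasi-likelihood test with Benjamini-Hochberg adjustment, adjusted p = 0.103). An exon of the gene *frma* lies opposite *SPR*, and whether the counting used the strand is not given in the sources used here, so reads of the 2 genes may be mixed. *Pdfr*, the receptor for the circadian peptide Pdf (X:2552206-2578640), followed with 111, 127 and 157 CPM in control and 171, 140 and 142 CPM in Appl- neuron-like cells, which overlapped (log2 change 0.20, SE 0.14, adjusted p = 0.517).

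Receptors for allatostatins came next. *AstA-R1*, a receptor for allatostatin A (X:3574536-3666724), was at 110, 105 and 105 CPM in control and 93.8, 81.5 and 86.3 CPM in Appl- neuron-like cells. Its groups did not overlap and the edgeR test gave a log2 change of -0.29 (SE 0.09, adjusted p = 0.0924). *AstC-R2*, a receptor for allatostatin C, was at 79.6, 69.4 and 69.7 CPM against 109, 84.6 and 82.4 CPM, again without overlap and again short of the threshold (log2 change 0.33, SE 0.12, adjusted p = 0.179 by edgeR). Its paralog *AstC-R1* had 27.1 CPM on average, and reads that the paralogs share could have been lost or split by the counting.

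The receptors that followed in level bind unrelated peptides. *sNPF-R*, the receptor for short neuropeptide F, stood at 54.2, 59.0 and 54.8 CPM in control and at 57.7, 55.7 and 55.6 CPM in Appl- neuron-like cells, within the same narrow range (log2 change 0.01, SE 0.08). *TrissinR*, the receptor for trissin, was at 58.3, 54.0 and 47.6 CPM against 48.3, 61.2 and 48.9 CPM and overlapped as well (log2 change -0.01, SE 0.12). *FMRFaR*, the receptor for FMRFamide peptides, was at 54.2, 43.4 and 35.4 CPM against 58.3, 42.0 and 42.8 CPM, with a log2 change of 0.10 (SE 0.18). For these 3 genes the adjusted p of the edgeR test was 0.971, 0.981 and 0.825, in that order.

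**Figure D1:**
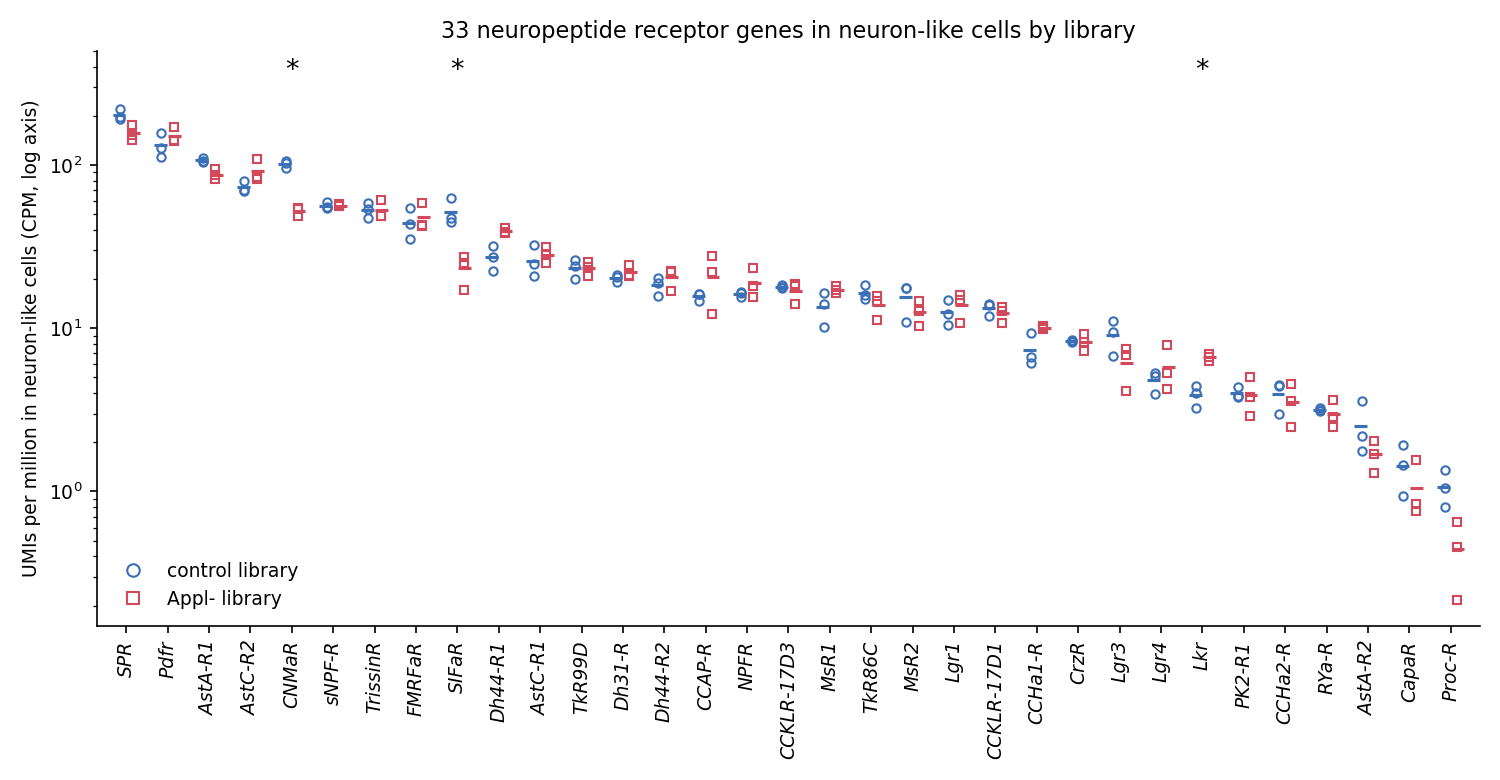
Levels of the 33 neuropeptide receptor genes in neuron-like cells, in CPM on a log axis, with a point for each library (circles control, squares Appl-), a bar at each group's mean and an asterisk over the genes called between genotypes. *SPR* is highest and *Proc-R* lowest, and *CNMaR*, *SIFaR* and *Lkr* carry the asterisk.

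The middle of the range held *TkR99D* (23.3 CPM), a tachykinin receptor, *Dh31-R* (21.2) and *Dh44-R2* (19.4), receptors for diuretic hormones, *CCAP-R* (18.1), the receptor for crustacean cardioactive peptide, and *NPFR* (17.6), the receptor for neuropeptide F. It also held the drosulfakinin receptors *CCKLR-17D3* (17.4 CPM) and *CCKLR-17D1* (12.8), and the myosuppressin receptors *MsR1* and *MsR2* with *TkR86C*, the receptor for natalisin, all between 12.8 and 15.3 CPM. *CCHa1-R*, for CCHamide-1, was at 8.71 CPM and *CrzR*, for corazonin, at 8.29 CPM. Members of such pairs of paralogs may share reads.

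At the low end, *AstA-R2* averaged 2.09 CPM, *CapaR* (the receptor for capa peptides) 1.24 CPM and *Proc-R* (the proctolin receptor) 0.753 CPM in neuron-like cells. *RYa-R*, *CCHa2-R* and *PK2-R1*, the receptors for RYamides, for CCHamide-2 and for a pyrokinin, lay between 3.08 and 3.94 CPM. The leucine-rich repeat receptors were spread over the lower range, with *Lgr1*, whose protein resembles glycoprotein hormone receptors, at 13.2 CPM, *Lgr3*, a receptor for the relaxin-like Ilp8, at 7.61 CPM and *Lgr4* at 5.29 CPM. Opposite-strand exons of other genes overlap *Lgr3*, *Lgr4*, *RYa-R* and *Dh44-R2* too, so part of their counts may belong to those neighbours.

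Most single neurons showed few of these transcripts. After each cell was thinned to 1000 UMIs, which 23088 neuron-like cells allowed, a cell had UMIs of 0.881 receptor genes on average, 41.4% of cells had none, 21.8% had at least 2 and the highest number was 6. Without thinning the median was 2 receptor genes per neuron. The 288 glia-like cells deep enough had 0.601 receptor genes per cell and 56.2% of them had none. Among clusters the lowest number was 0.320, in the peptidergic-like cluster 42 (25 cells). The neuron-like cluster 28 had 0.349, the photoreceptor-like cluster 36 had 0.357 and the Kenyon cell-like cluster 6 had 0.360. The other Kenyon cell-like cluster, number 11, had 0.660. The highest were 1.497 in cluster 21 and 2.52 in cluster 37, a set of 88 cells with high *SIFaR*.

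Levels in glia-like cells rested on few counts, with fewer than 50 UMIs for 28 of the 33 genes and fewer than 10 for 14. The mean CPM was at least 2-fold higher in neuron-like cells for 12 receptor genes and at least 2-fold higher in glia-like cells for 2, *Proc-R* and *AstA-R2*. CPM was higher in neuron-like cells in all 6 libraries for 6 genes (18.2%), against 18.6% of all genes tested in neurons, and for 10 genes at the clustering resolution of 0.5. These were *AstC-R2* (1.99-fold), *Pdfr* (2.38-fold), *CNMaR* (3.16-fold), *Dh44-R1* (3.31-fold), *CCKLR-17D3* (3.49-fold) and *Lgr3*, which had 7.59 CPM in neuron-like cells and no UMI in glia-like cells. No test was run on this comparison, since the classes are clusters of the same cells. The glia-like cells also carried neuron marker UMIs, whose sum was 4343 to 7037 CPM there against 8464 to 10711 CPM in neuron-like cells. Their glia marker sum was 5279 to 8898 CPM against 224 to 415 CPM, mostly from 7 of the 11 markers, with *wrapper*, *moody*, *Mdr65* and *Tret1-1* at 18, 30, 2 and 3 UMIs.

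*Proc-R* went the other way. Its plain CPM in glia-like cells was 38.6, 95.3 and 55.1 in the control libraries and 109, 42.5 and 29.5 in the Appl- libraries, against 0.218 to 1.32 CPM in neuron-like cells. It was therefore higher in glia-like cells in 6 of 6 libraries, 82.2-fold on the means, the only receptor gene with that direction throughout (7.07% of all genes). Of its 152 UMIs in all cells, 77 came from these 324 cells. After thinning, 5.90% of glia-like and 0.0693% of neuron-like cells had a *Proc-R* UMI. The genotypes overlapped within glia-like cells.

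Levels of the receptor genes were also described by cluster. Among the 27 clusters with at least 20 cells in every library, 14 of the 33 genes had a leading cluster more than 10 times above their median cluster. For 8 genes the leading cluster was the same in all 6 libraries and did not overlap the second. The same counts were not made over all genes, so they do not set the receptor genes apart from others. A gene with a low median cluster passes the 10-fold ratio easily. Clusters were named only by markers, the receptor genes took no part in forming them, and the levels below are descriptions without a test.

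In clusters with Kenyon cell markers, the intrinsic neurons of the mushroom body, 2 receptors of the leucine-rich repeat family stood out. *Lgr1* averaged 222 CPM in cluster 11 (132 to 278 over the 6 libraries), and that cluster held 37.9% of the gene's UMIs in 2.21% of the cells. *Lgr3* averaged 65.9 CPM in the other Kenyon cell-like cluster, number 6 (43.1 to 83.0), with 66.1% of its UMIs in 4.41% of the cells. *Pdfr* had its lowest mean, 10.9 CPM, in cluster 6, as the map of receptor levels by cluster shows.

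Cluster 3, with raised markers of T4/T5 cells, the direction-selective neurons of the visual system, was the site of *CNMaR*, the receptor for the peptide CNMamide (3L:9644109-9659433). Its level there averaged 949 CPM (436 to 1653) and 48.9% of its UMIs came from 4.94% of the cells. The next cluster averaged 78.6 CPM. *Lgr4* also led in cluster 3, at 29.8 CPM (13.8 to 53.2), though its range overlapped that of the second cluster. The smaller T4/T5-like cluster 26 was instead the leading cluster of *sNPF-R*, at 259 CPM (164 to 332), and had 62.1 CPM of *CNMaR* from 40 UMIs.

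Cluster 21, a neuron-like cluster with raised cholinergic markers, held both receptors for allatostatin A. *AstA-R1* averaged 1108 CPM there (917 to 1421), ahead of the Mi1-like cluster 20 at 545 CPM. *AstA-R2* averaged 98.3 CPM (73.1 to 136), against 8.49 CPM in the glia-like cluster that came second, and 66.7% of its UMIs lay in these 1.45% of cells. *FMRFaR* and *MsR1* had their highest means in cluster 21 as well, at 268 and 84.4 CPM.

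Receptors for the diuretic hormones were split over different cells. *Dh44-R1* averaged 346 CPM in the monoaminergic-like cluster 25 (71.8 to 511), where it led in 5 of 6 libraries. *Dh44-R2* averaged 203 CPM in cluster 24 (170 to 241), a cluster whose leading genes include the peptide gene *Tk*. *Dh31-R* was highest in cluster 18 at 90.8 CPM (64.8 to 116). *AstC-R1* led in cluster 30 at 266 CPM (202 to 349). *Pdfr* was the most evenly spread of the genes with a median above 0, since its leading cluster was only 2.62 times its median cluster.

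The leading cluster overlapped the second for the genes below, as it did for some of those above. *SPR* reached 541 CPM in cluster 24 (378 to 680), *AstC-R2* 344 CPM in cluster 30 (127 to 481) and *TrissinR* 138 CPM in cluster 10 (89.4 to 217). *TkR99D* reached 112 CPM in cluster 4 (58.6 to 153), *CCAP-R* 75.1 CPM in cluster 22 (35.9 to 165) and *MsR2* 58.3 CPM in cluster 12 (35.0 to 79.4). *SIFaR* was also highest in cluster 4 among these clusters, at 99.7 CPM (62.2 to 136). The lowest genes, *CapaR*, *PK2-R1*, *RYa-R* and *CCHa2-R*, did not reach a mean of 10 CPM in any of the 27 clusters.

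**Figure D2:**
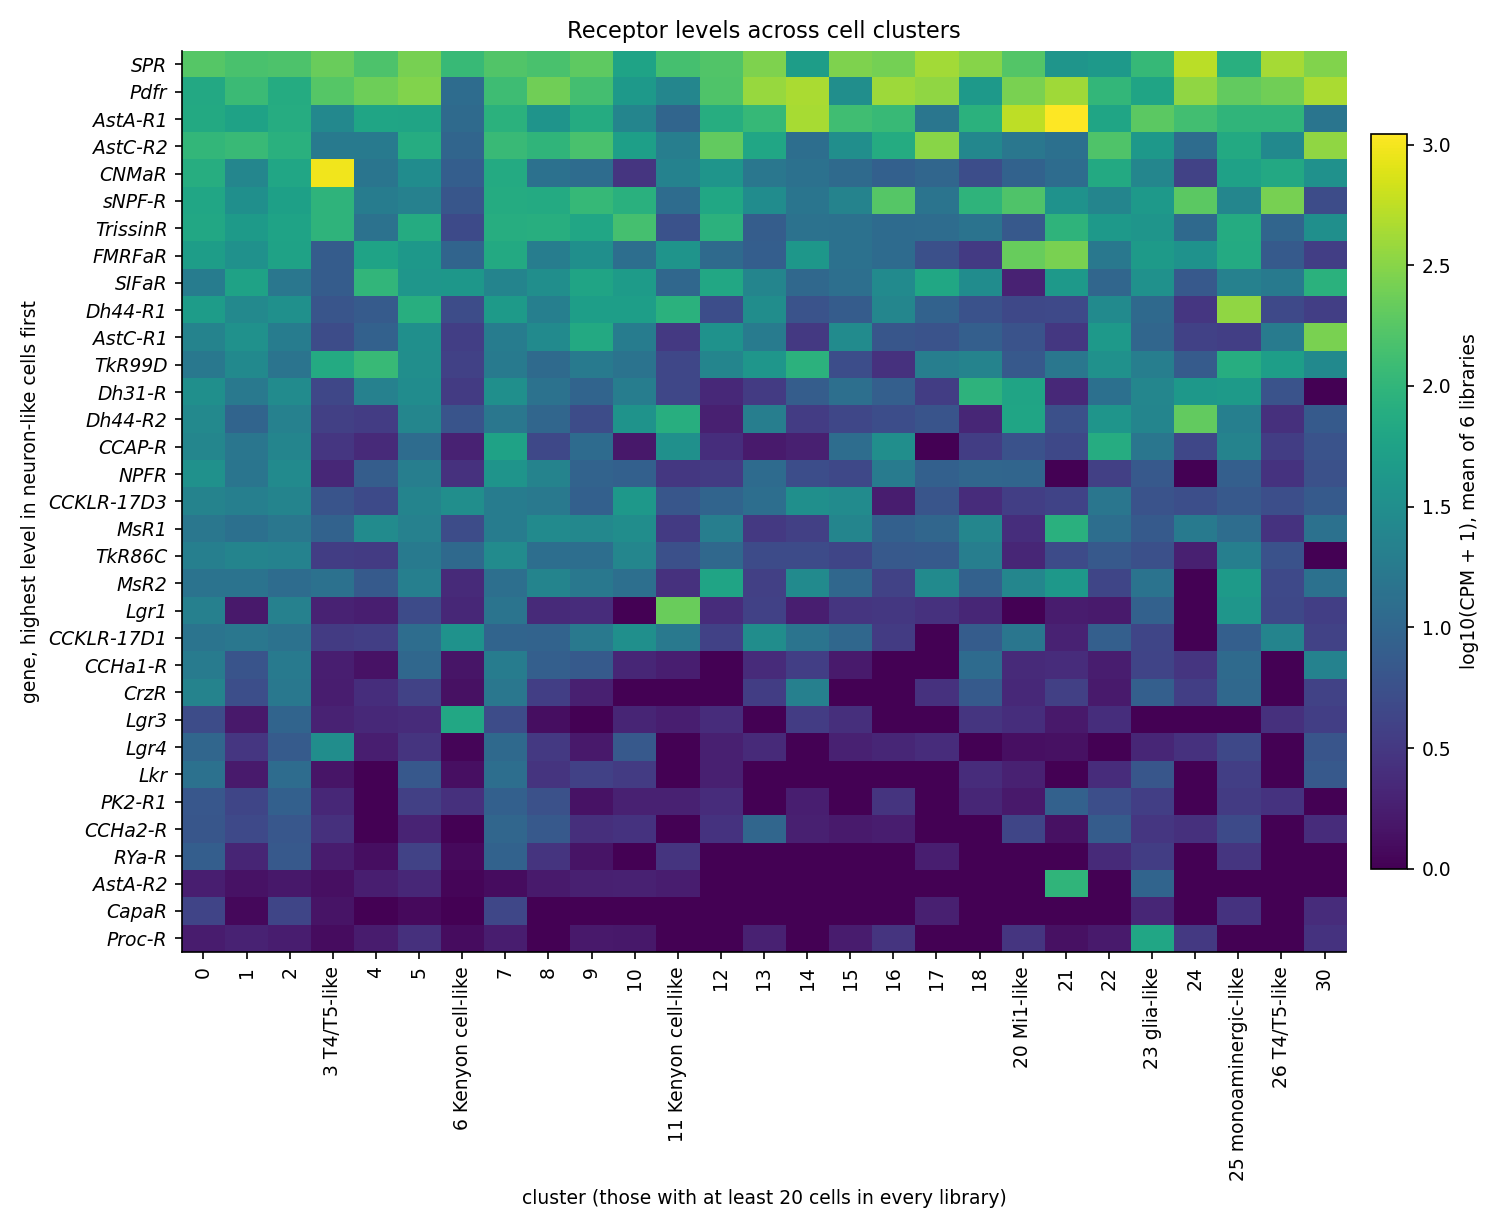
Level of each receptor gene (rows) in each of the 27 clusters with at least 20 cells in every library (columns), as log10 of the mean CPM of 6 libraries plus 1. *AstA-R1* in cluster 21 at 1108 CPM and *CNMaR* in cluster 3 at 949 CPM are the brightest cells, *Proc-R* is bright only in the glia-like cluster 23, and *SPR* and *Pdfr* form broad bands.

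Receptors were also set beside the genes for their peptides, for which cluster 7 was the leading cluster of 13 of 28, and 9 of the 28 had fewer than 200 UMIs. *NPFR* and *TkR86C* had their own highest means in that cluster too. *NPFR* was at 42.0, 39.0 and 49.7 CPM in the control and 22.7, 22.2 and 44.3 CPM in the Appl- libraries there. Its peptide gene *NPF* was at 1038, 199 and 0 CPM in control and at 9616, 18.8 and 0.985 CPM in Appl- libraries, so its level in cluster 7 came mostly from Appl- replicate 1. *TkR86C* lay between 20.7 and 37.1 CPM, while *natalisin* was at 276 CPM in control replicate 1 and at 0 to 0.427 CPM in the other libraries.

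Whether the receptors changed with loss of Appl was asked first in summed neuron-like cells. *CNMaR* and *SIFaR* fell and *Lkr* rose, 3 of 33 genes (9.09%), where 6.17% of all 8218 genes tested were called (adjusted p under 0.05 and a change past the study's fold threshold), 3.41% as higher and 2.76% as lower. The median log2 change of the 33 genes was -0.01 and that of all genes was -0.00. Groups did not overlap for 9 receptor genes (27.3%) against 25.0% of all genes, and 9 had an unadjusted p under 0.05, against 20.0%. Of the receptor genes, 15 lay above 0 and 18 below, where 49.1% of all genes lay above 0.

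*CNMaR* fell in summed neuron-like cells of Appl- flies, but without the T4/T5-like cluster 3 the log2 change was 0.011 (edgeR adjusted p = 0.980). Its CPM in neuron-like cells was 95.5, 103 and 106 in control and 54.3, 48.3 and 53.5 in Appl- libraries, far apart relative to the spread (log2 change -0.96, SE 0.09, 1.95-fold, edgeR adjusted p = 0.000382). *SIFaR* (3R:21276664-21293998), the receptor for SIFamide, a peptide known for its part in sleep and courtship, was at 44.4, 62.3 and 47.0 CPM in control and 17.2, 27.2 and 25.2 CPM in Appl- libraries. Every Appl- value lay below every control value (log2 change -1.14, SE 0.19, 2.20-fold, edgeR adjusted p = 0.0108). *SIFaR* UMIs were seen in 10.4 to 12.995% of control and 4.34 to 5.79% of Appl- neuron-like cells, and after thinning in 4.01 to 4.93% and 1.62 to 2.36%. Summed markers of hemocytes and photoreceptors, none of them at 0, were also lower in the Appl- neuron-like cells without overlap. The sums were 73.3 to 195 against 53.1 to 69.2 CPM for the 9 hemocyte markers, with *Pxn* giving 65.8% of their UMIs. For the 7 photoreceptor markers they were 103 to 216 against 24.5 to 101 CPM, with *ninaE* giving 62.1%. The part of these markers in these results was not tested. *SIFaR* was at 13.4 CPM (14 UMIs) in the hemocyte-like and at 6.19 CPM (3 UMIs) in the photoreceptor-like cells, pooled over libraries. Both genes kept their call with any single library left out, with log2 changes from -1.01 to -0.91 for *CNMaR* and from -1.28 to -0.97 for *SIFaR*.

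*Lkr*, the receptor for leucokinin (3L:5512421-5529341), was a low gene with 433 UMIs in neuron-like cells. Its CPM was 4.44, 3.23 and 4.003 in control and 6.98, 6.32 and 6.70 in Appl- libraries, which did not overlap (log2 change 0.77, SE 0.18, edgeR adjusted p = 0.0468). The call was close to the threshold and was lost in 5 of 6 fits with a library left out, all but that without control replicate 1, with an adjusted p of up to 0.160. It was also lost in 7 fits with other settings, DESeq2 and total counts among them (adjusted p = 0.0502 to 0.0649), and without *Lkr* 2 of 33 genes (6.06%) were called. *Dh44-R1*, a receptor for the corticotropin-releasing factor-like peptide Dh44, encoded on chromosome arm 2R, was at 22.5, 31.8 and 27.4 CPM in control and 41.3, 38.5 and 38.1 CPM in Appl- neuron-like cells. The groups did not overlap, and the adjusted p of 0.0519 lay just above the threshold (log2 change 0.53, SE 0.13, edgeR).

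As an alternative, the replicate numbers were taken to pair the libraries of the 2 genotypes, although no label says that they do. With that number in the model as a block, the edgeR test called 7 receptor genes in neuron-like cells in place of 3. Of all genes, 12.1% were called with the block. It added *SPR* (adjusted p = 0.0407) and *Lgr3* (0.0472) as lower, and *AstC-R2* (0.0257) and *Dh44-R1* (0.02997) as higher. *AstA-R1* passed on p (0.0276) with a change below the fold threshold. Over all 25188 cells, 2 of 33 genes (6.06%) were called, *CNMaR* (log2 change -0.91, SE 0.09, adjusted p = 0.00205) and *SIFaR* (-1.10, SE 0.20, 0.0256, and 0.0567 to 0.0891 without control replicate 2 or any of the Appl- libraries), against 5.95% of all genes, and the block brought this to 4 (10.8% of all genes) by adding *Dh44-R1* (0.0487) and *AstC-R2* (0.0354). Other receptors, such as *sNPF-R*, *TrissinR* and *TkR99D*, did not reach the threshold in either fit.

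Genes around the receptors were counted from lists in the same fit of neuron-like cells, where 6.17% of all genes were called and 20.0% had an unadjusted p under 0.05. Of 19 genes for peptide ligands none was called by edgeR, and 3 (15.8%) had an unadjusted p under 0.05. The 9 genes for peptide processing gave no call and no unadjusted p under 0.05, and 11 further peptide receptor genes outside the 33 gave no call, with 2 (18.2%) at an unadjusted p under 0.05. Of 26 genes of G protein signalling, *rut*, a calcium-responsive adenylyl cyclase, was called (3.85%). It fell from 649, 631 and 576 CPM to 490, 450 and 437 CPM (log2 change -0.43, SE 0.10, adjusted p = 0.0360). Over all cells, where 5.95% of genes were called, *rut* had a log2 change of -0.37 and an adjusted p of 0.0536. *Ac3*, another adenylyl cyclase, rose over all cells from 200, 256 and 228 CPM to 295, 359 and 346 CPM (log2 change 0.55, SE 0.12, adjusted p = 0.0486), and in neuron-like cells its adjusted p was 0.0569.

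With the replicate block, 1 ligand gene, 3 genes of G protein signalling and 1 of the other peptide receptor genes were called in neuron-like cells (5.26, 11.5 and 9.09% of their lists, where the block called 12.1% of all genes). The ligand gene was *SIFa*, which encodes the peptide of *SIFaR*, at 0.404, 2.79 and 0 CPM in control and 4.70, 11.1 and 0.108 CPM in Appl- libraries, which overlapped (log2 change 2.49, edgeR adjusted p = 0.00756 with the block and 0.335 without it). Over all cells its direction was the opposite. There *SIFa* was at 0.371, 52.0 and 0 CPM in control and 4.65, 10.9 and 0.107 CPM in Appl- libraries (log2 change -1.65, edgeR adjusted p = 0.671 without the block). *Ac3* was called at an adjusted p of 0.00369 and *rut* at 0.00457. *Gbeta76C*, a G protein beta subunit known from photoreceptors, was lower (log2 change -1.38, 0.0369), and *ETHR*, the receptor for ecdysis-triggering hormone, was higher (0.93, 0.0453). Over all cells the block called *Gpb5*, *Galphai*, *Gbeta76C*, *rut* and *Ac3* (adjusted p = 0.0288, 0.0308, 0.0156, 0.0154 and 0.00643), against 10.8% of all genes.

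Within single clusters, 242 pairs of a receptor gene and a cluster could be tested, and 11 were called (4.55%) against 2.03% of all gene and cluster pairs. They belonged to 7 genes and 9 clusters, and 31 of the 33 genes were tested in at least 1 cluster. *SIFaR* gave 5 of the 11 calls. P-values were adjusted over the genes tested in each cluster and not across clusters. With the replicate block 19 pairs of 8 genes were called (7.85%, against 4.17% of all gene and cluster pairs), the added pairs being *Pdfr* in clusters 1, 5 and 21, *SPR* in clusters 1, 5 and 12, *FMRFaR* in cluster 1 and *TkR99D* in cluster 4.

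*SIFaR* was lower in Appl- cells in 11 of 11 clusters tested, with log2 changes from -2.09 to -0.42 and a median of -1.25. In cluster 0, the largest, its CPM was 29.3, 29.7 and 28.1 in control and 8.18, 7.92 and 6.13 in Appl- libraries (log2 change -1.92, SE 0.21, edgeR adjusted p = 0.000282). In the Kenyon cell-like cluster 6 it was 51.8, 97.7 and 46.8 against 19.3, 17.7 and 5.88 CPM (-2.09, SE 0.33, 0.000462). In both clusters the groups did not overlap, and both calls held with any library left out. Sums of the 9 hemocyte markers were also lower without overlap, at 83.1 to 192 against 50.9 to 61.5 CPM in cluster 0 and 130 to 214 against 86.9 to 98.04 CPM in cluster 6, with *NimC1* and *eater* at 0 in the latter. The 7 photoreceptor markers summed to 99.8 to 200 against 12.9 to 77.1 CPM in cluster 0 and overlapped in cluster 6. *Pxn* gave 69.4 and 74.9% of the hemocyte marker UMIs in clusters 0 and 6. In cluster 0 *ninaE* gave 66.7% of the photoreceptor marker UMIs. The part of these markers in the result was not tested. Of the Kenyon cell markers in cluster 6, the low gene *crb* was called between genotypes (log2 change 1.45, adjusted p = 0.0097). The other 3 calls were in cluster 1 (70.99, 93.3 and 73.0 against 19.7, 37.8 and 43.6 CPM), cluster 2 (20.5, 34.0 and 18.1 against 8.89, 7.48 and 2.42 CPM) and cluster 7 (20.6, 42.5 and 43.6 against 10.8, 7.68 and 11.8 CPM). Their log2 changes were -1.22, -1.79 and -1.81 (SE 0.23, 0.37 and 0.33, adjusted p = 0.0109, 0.0282 and 0.0161), and they held in 5, 3 and 2 of the 6 fits with a library left out, with an adjusted p of up to 0.0521, 0.127 and 0.113. The calls were lost without control replicate 2 in each of these clusters, without Appl- replicate 2 in clusters 2 and 7, without Appl- replicate 3 in cluster 2, and without control replicate 3 or Appl- replicate 1 in cluster 7. Hemocyte marker sums were apart in cluster 2 (81.5 to 172 against 45.2 to 54.5 CPM, *eater* at 0, *Pxn* 67.4% of UMIs). Photoreceptor marker sums were apart in cluster 7 (115.2 to 176 against 43.3 to 67.1 CPM, *ninaE* 53.9% of UMIs), while both lists overlapped in cluster 1.

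The fall of *SIFaR* was then compared between each of these clusters and the remaining neuron-like cells, in a joint model with library terms, a test added after the calls were seen. The difference was not called in any of the 5 clusters (adjusted p = 0.185, 0.851, 0.715, 0.125 and 0.782 for clusters 0, 1, 2, 6 and 7), where 0.152, 0.478, 0.246, 2.46 and 0% of all genes were called. In the remaining neuron-like cells *SIFaR* had log2 changes of -1.13 to -1.05 and was called each time. Its highest pooled level, 797 CPM from 345 UMIs, was in cluster 37, which had too few cells per library for a test.

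*CNMaR* behaved differently. In the T4/T5-like cluster 3 its CPM was 1085, 1584 and 1653 in the control libraries and 436, 476 and 459 in the Appl- libraries, a wide gap (log2 change -1.65, SE 0.14, 3.14-fold, edgeR adjusted p = 1.87e-06). The call held with any library left out, at -1.80 to -1.56. *CNMaR* UMIs were found in 83.1 to 88.2% of control and 43.8 to 54.1% of Appl- cells of the cluster, and after thinning in 61.9 to 75.1% and 30.4 to 33.9%. A control cell with the transcript held 3.93 to 5.32 UMIs of it, an Appl- cell 1.92 to 1.98, so fewer cells and fewer UMIs per cell were seen together.

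In the remaining neuron-like cells *CNMaR* was at 46.0, 35.4 and 36.5 CPM in control and 43.5, 33.9 and 41.7 CPM in Appl- libraries, which overlapped (log2 change 0.011, SE 0.14, adjusted p = 0.980). The genotype effect in cluster 3 differed from that in the remaining neuron-like cells by -1.62 on the log2 scale (edgeR adjusted p = 0.000515, with 0.582% of all genes called in that test). The comparison was run because of the call in cluster 3 and on the same counts, so it is not separate evidence. The fall of *CNMaR* in summed neuron-like cells thus lost its call when cluster 3 was left out. Cluster 3 made up 4.95, 5.00 and 6.20% of kept cells in control and 4.05, 4.77 and 4.63% in Appl- libraries. The markers that named it, *TfAP-2*, *acj6*, *bi* and *Sox102F*, were not called between genotypes within it (log2 changes 0.03, 0.02, 0.28 and 0.17). The sum of 9 hemocyte markers, with *eater* at 0, was 36.01 to 168 CPM in control and 14.9 to 35.9 CPM in Appl- cells of the cluster. *Nplp2* gave 54.6% of its UMIs. *CNMaR* itself was at 15.3 CPM (16 UMIs) in the hemocyte-like cells, and the part of these markers in the result was not tested.

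*Pdfr* rose in the same cluster, from 114, 128 and 123 CPM to 287, 192 and 201 CPM (log2 change 0.89, SE 0.18, 1.86-fold, edgeR adjusted p = 0.00871). The Appl- values all lay above the control values, and replicate 1 was the highest of them. Without that library the adjusted p was 0.0659. The effect differed from that in other neuron-like cells by 0.71, short of the threshold (adjusted p = 0.0590). *Pdfr* lay above 0 in 19 of 23 clusters tested, with a median log2 change of 0.34.

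**Figure D3:**
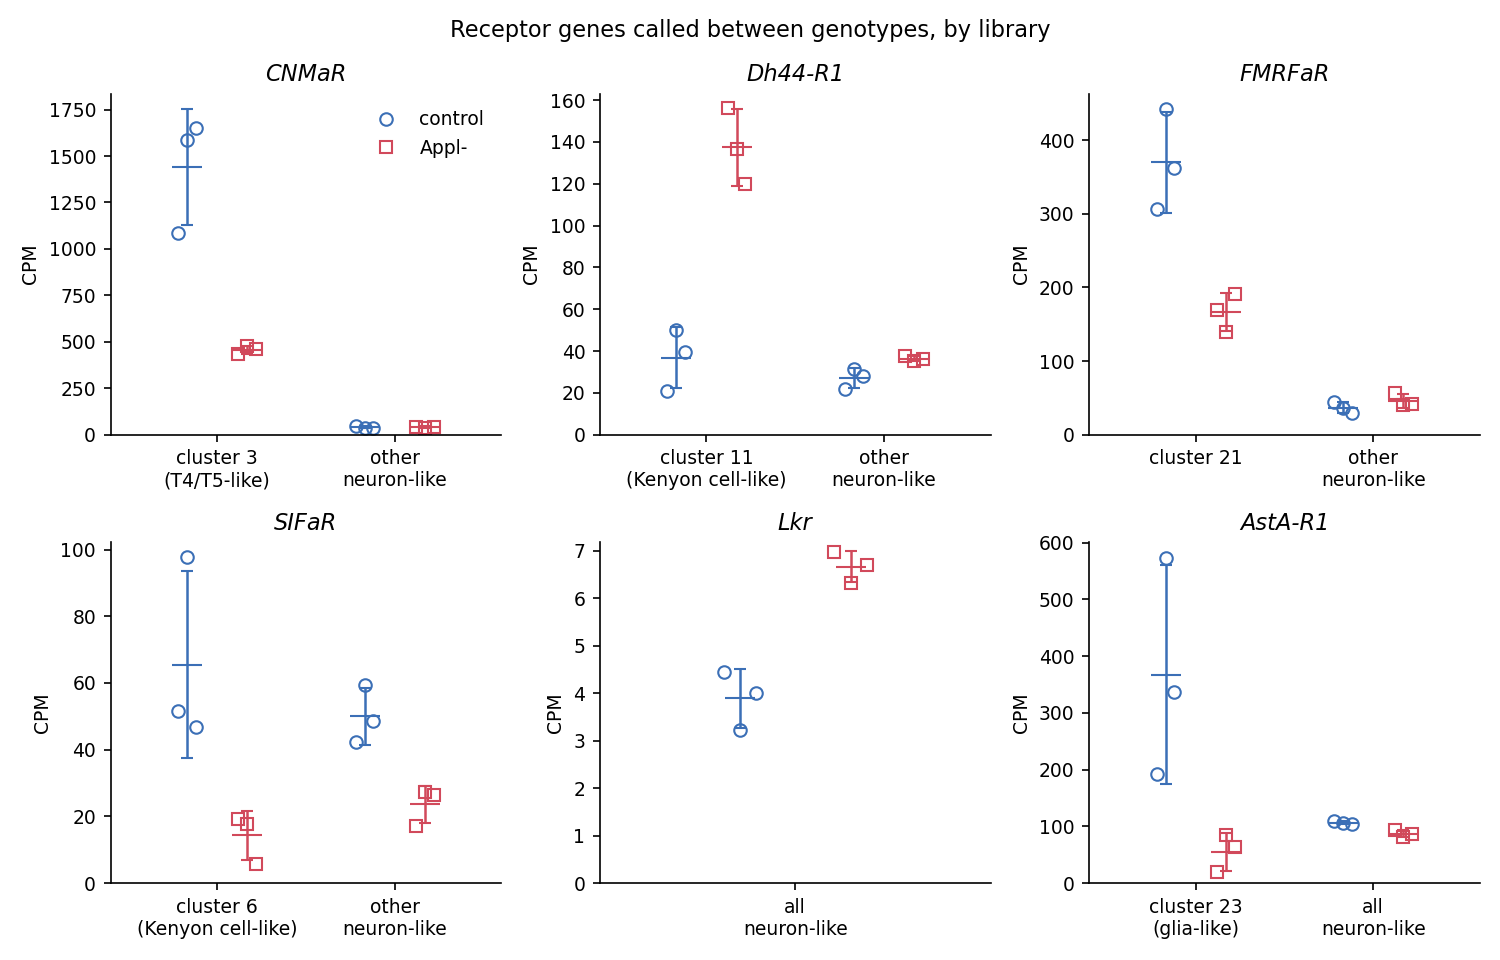
Receptor genes called between genotypes, in CPM per library (circles control, squares Appl-), with the mean and SD of 3 libraries, in the cells where the call was made and in the other or all neuron-like cells; every axis starts at 0. *CNMaR* differs in cluster 3 and not in other neuron-like cells, while *SIFaR* is lower in both sets of cells.

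The Kenyon cell-like cluster 11 had calls for 2 receptors in opposite directions. *Dh44-R1* rose there from 21.1, 49.9 and 39.4 CPM in control to 156, 136 and 120 CPM in Appl- libraries (log2 change 1.98, SE 0.30, 3.95-fold, edgeR adjusted p = 0.00135). No values overlapped, and the call held with any library left out (1.66 to 2.23). Its UMIs were in 5.68 to 11.3% of control and 28.6 to 35.2% of Appl- cells of the cluster, from 186 UMIs in all. The 7 photoreceptor markers summed to 105 to 242 CPM in control and 12.4 to 81.4 CPM in Appl- cells of the cluster, with *ninaE* giving 62.7% of their UMIs. *Dh44-R1* had no UMI in the photoreceptor-like cells, which numbered only 131, and the part of these markers in the result was not tested. In other neuron-like cells the log2 change was 0.43 (adjusted p = 0.0982), and the effect in cluster 11 differed from it by 1.54 (adjusted p = 0.0119, with 1.75% of all genes called). That difference was tested only because of the call in cluster 11, on the same counts.

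*SPR* fell in cluster 11 from 172, 255 and 153 CPM to 80.5, 69.2 and 107 CPM (log2 change -1.19, SE 0.25, edgeR adjusted p = 0.0153). The groups were apart, and the call was lost without control replicate 2 or Appl- replicate 2, with an adjusted p of up to 0.0932. Its effect there was not separated from that in other neuron-like cells (difference -0.85, adjusted p = 0.104), and *SPR* lay below 0 in 20 of 24 clusters tested, with a median log2 change of -0.42. Cluster 11 made up 1.98, 1.57 and 1.88% of cells in control and 3.20, 2.24 and 2.44% in Appl- libraries, and none of its Kenyon cell markers was called between genotypes.

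*FMRFaR* fell in cluster 21, from 306, 442 and 362 CPM to 170, 140 and 190 CPM (log2 change -1.16, SE 0.25, edgeR adjusted p = 0.0188). Values of the 2 genotypes were apart there. In other neuron-like cells its log2 change was 0.34 (adjusted p = 0.401), and the effects differed by -1.49 (adjusted p = 0.0310, with 0.866% of all genes called). This comparison was likewise run after the call and on the same counts. The call in cluster 21 was lost without control replicate 2, Appl- replicate 1 or Appl- replicate 2, with an adjusted p of up to 0.249. That cluster was also a smaller part of the Appl- libraries, with 2.77, 1.63 and 1.73% of control and 0.712, 1.07 and 0.634% of Appl- cells, and its 9 hemocyte markers, with *NimC1* and *eater* at 0, summed to 146 to 255 against 41.5 to 103.9 CPM. *Pxn* gave 63.75% of these marker UMIs. The part of these differences in the result was not tested.

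**Figure D4:**
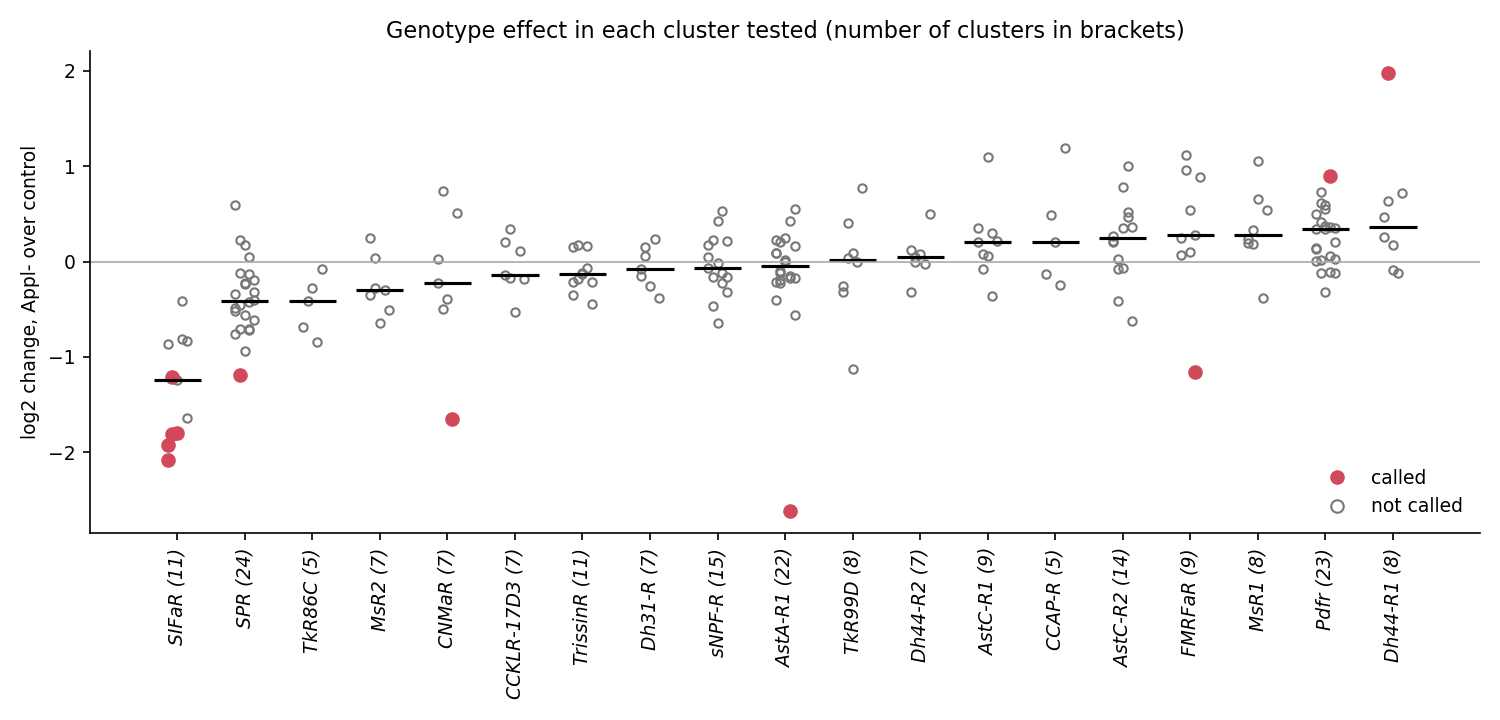
Log2 change (Appl- over control) of receptor genes tested in at least 5 clusters, a point for each cluster, filled where called, with a bar at each gene's median. *SIFaR* lies below 0 in all 11 clusters, *CNMaR* has a single point far below the others at -1.65, and *Dh44-R1* has a single point far above at 1.98.

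In glia-like cells 3 receptor genes had enough UMIs for a test, and *AstA-R1* fell, against 1.18% of all genes called there. Its CPM was 192, 573 and 337 in control and 19.0, 84.7 and 63.0 in Appl- libraries, without overlap (log2 change -2.62, SE 0.53, 6.15-fold, edgeR adjusted p = 0.0363). The counts behind it were small, at 62, 155 and 48 UMIs in control and 2, 17 and 4 in Appl- libraries. *AstA-R1* UMIs were in 12.7 to 15.7% of control and 5.41 to 13.8% of Appl- glia-like cells, and a positive control cell held 5.17, 22.1 and 6 UMIs against 1, 2.83 and 1, so a few cells carried most of them. With a library left out the log2 change ran from -3.30 to -2.12, and the call was lost without control replicate 2 or any of the Appl- libraries, with an adjusted p of up to 0.202.

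The fall of *AstA-R1* was not separated from its change in neuron-like cells (difference -2.17, edgeR adjusted p = 0.250). In that test none of 2613 genes passed after adjustment and 11.5% had an unadjusted p under 0.05. Summed markers of fat body and of photoreceptors were also lower in the Appl- glia-like cells, and each sum came mostly from 1 gene. The 5 fat body markers, all seen, summed to 3202, 9590 and 1914 CPM in control and 879, 1604 and 472 CPM in Appl- libraries. *Tsf1* gave 89.2% of their UMIs. The 7 photoreceptor markers, with *chp* at 0, summed to 634, 1096 and 131 CPM against 83.7, 61.3 and 44.3 CPM, and *ninaE* gave 87.3% of their UMIs. Both sums peaked in control replicate 2, as *AstA-R1* did, and their part in the result was not tested. *AstA-R1* was at 29.3 CPM, from 12 UMIs, in the cluster with raised fat body markers and at 16.5 CPM, from 8 UMIs, in the photoreceptor-like cells. *SPR* and *Pdfr* overlapped between genotypes in glia-like cells (adjusted p = 0.767 and 0.958). *AstA-R2* had 16 UMIs in control and none in Appl- glia-like cells and was too low for a test.

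Receptors were also compared between neurons of different fast transmitters, classed by UMIs of the cell's own markers, which were *VAChT* or *ChAT* for cholinergic (9573 cells), *VGlut* for glutamatergic (2808) and *Gad1* or *VGAT* for GABAergic cells (2490). Sums per class and library were tested with a term for each library, for 24 of the 33 genes. Against 12.3% of all genes, 9 receptor genes were called between cholinergic and glutamatergic neurons. Between cholinergic and GABAergic neurons 10 were called against 16.1%, and between glutamatergic and GABAergic neurons 8 against 7.05%. In all 16 genes differed in at least 1 pair and *CNMaR* differed in all 3.

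*CNMaR* had its highest level in cholinergic neurons, with a lowest, median and highest library of 60.2, 97.6 and 162 CPM, against 12.1, 28.6 and 54.0 CPM in glutamatergic and 34.4, 43.9 and 70.5 CPM in GABAergic neurons. It was lower in the other classes in 6 of 6 libraries (log2 change -1.90, SE 0.18, edgeR adjusted p = 4.76e-08 for glutamatergic and -1.14, SE 0.16, 9.73e-06 for GABAergic). The difference rested largely on cluster 3, which made up 8.15% of cholinergic, 0.321% of glutamatergic and 1.49% of GABAergic neurons. Without that cluster, an alternative added after seeing the data, the log2 changes were -0.66 (adjusted p = 0.0105) and -0.14 (adjusted p = 0.591), and that between glutamatergic and GABAergic neurons was 0.52 (adjusted p = 0.122).

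*SIFaR* was highest in glutamatergic neurons, with a lowest, median and highest library of 32.4, 81.8 and 96.6 CPM. Cholinergic neurons had 13.7, 29.2 and 59.6 CPM and GABAergic neurons 14.4, 17.9 and 46.8 CPM, and the glutamatergic value was the higher in each of the 6 libraries (log2 1.33 over cholinergic, SE 0.17, adjusted p = 2.82e-06, and GABAergic below glutamatergic at -1.65, SE 0.21, 8.32e-06). The mean was lower in Appl- flies in each class, with 44.6 and 16.4 CPM in cholinergic, 90.5 and 56.4 CPM in glutamatergic and 31.7 and 16.6 CPM in GABAergic neurons of control and Appl- flies. In GABAergic neurons the groups overlapped, at 31.0, 46.8 and 17.4 against 17.1, 18.3 and 14.4 CPM. In glutamatergic neurons Appl- replicate 3, at 81.0 CPM, was close to control replicate 2, at 82.6 CPM. Cholinergic neurons were apart, at 36.9 to 59.6 against 13.7 to 21.6 CPM. These values were not tested by genotype within a class. *MsR1* was likewise higher in glutamatergic than in cholinergic neurons, at 14.4, 21.8 and 38.2 against 10.1, 12.6 and 14.2 CPM (log2 change 0.85, SE 0.18, edgeR adjusted p = 0.00125). *TkR99D* showed the same order at 21.1, 33.1 and 42.8 against 19.7, 21.6 and 23.9 CPM (0.54, SE 0.19, 0.0440).

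*Dh44-R2* and *Lgr1* were lower in glutamatergic than in cholinergic neurons in 6 of 6 libraries. *Dh44-R2* had 5.19, 10.1 and 17.6 CPM against 15.9, 19.7 and 26.5 CPM (log2 change -0.84, SE 0.19, edgeR adjusted p = 0.00205). *Lgr1* had 4.59, 9.28 and 11.6 CPM against 10.96, 13.96 and 25.6 CPM (-0.77, SE 0.27, 0.0484).

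GABAergic neurons stood out by a low level of *sNPF-R*, with a lowest, median and highest library of 18.9, 30.3 and 36.7 CPM. Cholinergic neurons had 59.1, 62.2 and 67.1 CPM and glutamatergic neurons 33.2, 56.6 and 69.3 CPM, and GABAergic neurons lay below them in each library (log2 change -1.08, SE 0.14, edgeR adjusted p = 5.11e-06 and -0.90, SE 0.17, 0.000640). *Dh44-R1* was highest in GABAergic neurons in 6 of 6 libraries, at 35.7, 46.1 and 52.9 CPM against 19.5, 33.1 and 40.5 CPM in cholinergic and 21.1, 27.6 and 33.3 CPM in glutamatergic neurons (log2 changes 0.54 and 0.74, SE 0.11 and 0.13, adjusted p = 0.000569 and 0.000396). *Pdfr* and *CCKLR-17D3* were higher in GABAergic than in cholinergic neurons in every library. *Pdfr* had 114, 184 and 194 CPM against 99.3, 126 and 150 CPM (0.44, SE 0.09, 0.000748), and *CCKLR-17D3* had 17.9, 23.1 and 29.9 CPM against 12.6, 15.7 and 19.4 CPM (0.58, SE 0.12, 0.000713).

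*AstA-R1* was lowest in glutamatergic neurons, at 45.2, 61.0 and 76.9 CPM, against 87.3, 104 and 150 CPM in GABAergic neurons, which were higher in 6 of 6 libraries (log2 change 0.82, SE 0.11, edgeR adjusted p = 2.38e-05). Its range in cholinergic neurons, 86.3 to 114.8 CPM, overlapped that in GABAergic neurons. *SPR*, the receptor with the highest level, was called in none of the 3 pairs, with medians of 171, 173 and 184 CPM in cholinergic, glutamatergic and GABAergic neurons. The 9 genes left out for low counts, among them *Lgr3*, *Lkr* and *Proc-R*, had 39 to 329 UMIs over the 3 classes.

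**Figure D5:**
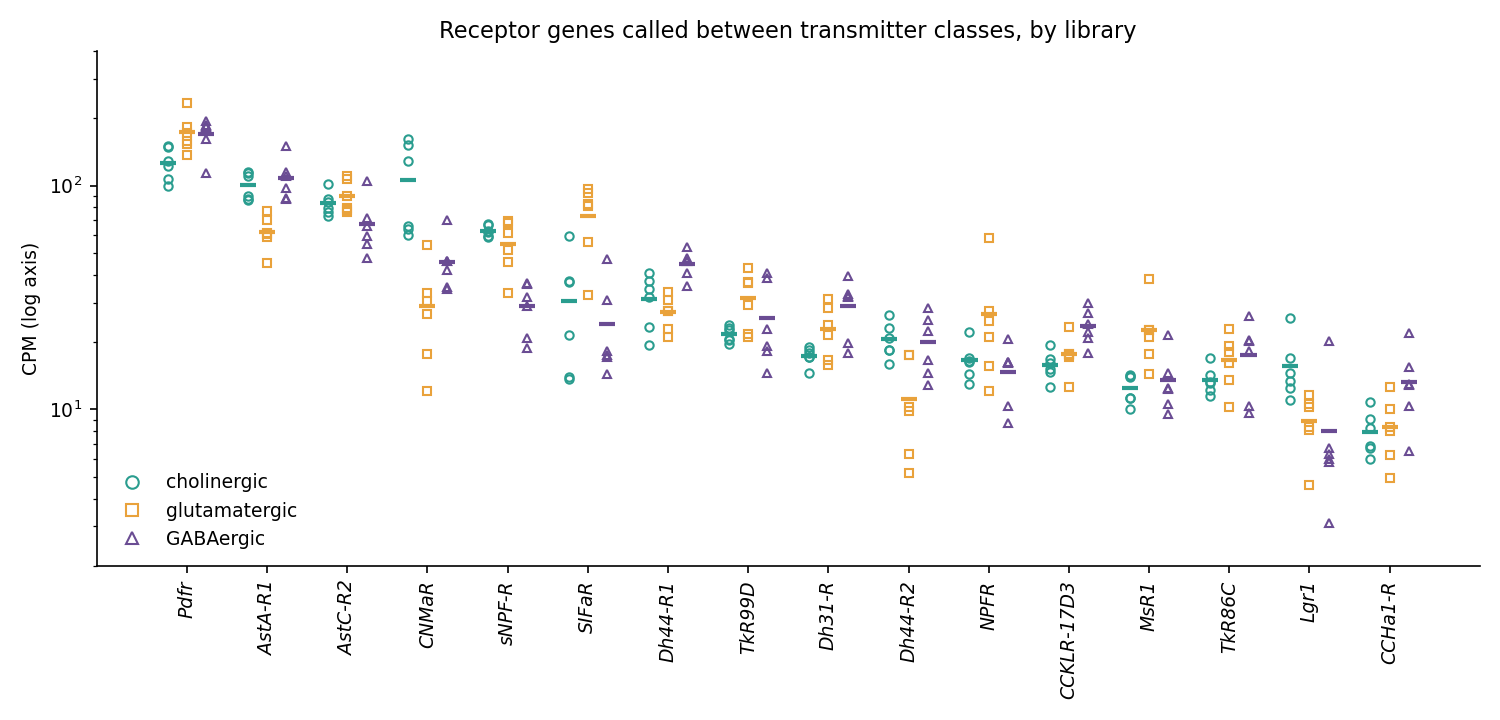
The 16 receptor genes called between at least 1 pair of transmitter classes, in CPM on a log axis, with a point for each of the 6 libraries in each class and a bar at the mean. *SIFaR* is highest in glutamatergic, *CNMaR* in cholinergic neurons and *sNPF-R* lowest in GABAergic neurons.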

How the data were processed

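Barcoded 3′ single-cell libraries of fly brains were counted by the authors with Cell Ranger 6.0 (version from the submitters' processing notes), and the deposited values are raw UMI counts per gene and barcode. The genome build and the use of strand are not given in the sources used here. Of the 22064 features, 5571 transposable element insertions, 0.600 to 0.846% of the UMIs, were left out. Gene positions come from the BDGP6.54 annotation, in which 33 of 33 receptor genes matched by identifier.

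Barcodes with 200 or more genes and no more than 10% of counts from mitochondria were taken as cells and clustered in Python 3.11.15 with scanpy 1.11.5 and the Leiden algorithm (leidenalg 0.10.2, 2000 variable genes without the receptor genes, 30 principal components, 20 neighbours, resolution 1). A cluster was named where at least 3 markers of a list were raised 2-fold or more and present in at least 10% of its cells (for neurons, 3 markers in at least 50% of cells), and a non-neuronal list took precedence. Scrublet called 2 cells as doublets, too low a number to be a working result, and doublets were left in.

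Counts were summed per library and class, or per cluster where each library had 20 or more cells, and tested with edgeR 4.0.16 in R 4.3.3 (quasi-likelihood test, TMM with factors of 0.921 to 1.09, filterByExpr), with Benjamini-Hochberg adjustment over all genes tested. The adjustment was made within each fit, so p-values of single clusters are not adjusted across clusters. A call needs an adjusted p under 0.05 and at least 1.25-fold. Tests of a cluster against other neuron-like cells, and fits without cluster 3, were added after seeing the data. Results of the former are given only for receptor genes already called in that cluster. They use the same counts, so their p-values are not independent of those calls. The test was tried on simulated data first, but the outcome is not given here and no result above rests on it. Replicate numbers shared between the genotypes marked libraries whose deviations went together (correlations across genes of 0.25, 0.21 and 0.33, all above 0.1), and the numbers were taken to pair the libraries, although no label says what a number shares. The deviations are from means of 3 libraries, so these correlations cannot settle whether libraries were paired. From replicate 1 to 3, barcodes above the mitochondrial limit also fell in both genotypes (84.7, 47.2 and 38.7% in control, 63.9, 38.6 and 31.8% in Appl- libraries). Squared differences between counts of replicate libraries were 10.2 to 65.6 times those of sampling noise (chi-square per degree of freedom), so none was a duplicate.

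The receptor genes, gene lists and markers were chosen with earlier results of these data known. Full values are given for genes called by genotype, for the 10 highest genes in neuron-like cells and, for each pair of transmitter classes, for the 3 largest changes each way among calls of 1 direction in all 6 libraries. *Ac3*, *rut*, other genes called from the pathway lists and genes named only for their level in a cluster come from the listed pathways or from the rule that names a gene's leading cluster. Alternatives were DESeq2 1.42.0, total counts, no low-count filter, the replicate block, at least 500 genes, no mitochondrial limit, removal of the 5% highest doublet scores, other resolutions, no fold threshold, at least 50 cells per library and leaving out each library.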

Additional observations from a re-analysis of the deposited data

How the results depend on the processing

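With the replicate block, receptor genes called between genotypes numbered 4 over all cells (2 without it) and 7 in neuron-like cells (3 without it), and pairs of a gene and a cluster rose from 11 to 19. Among the receptor genes, the block changed no call by genotype other than those named in the report, and it changed calls in the lists around them as given there. Without the low-count filter 22 such pairs were called, and 6 to 18 with a library left out. Leaving out each library gave 1 to 4 genes over all cells (4 without control replicate 1, 1 without any of the Appl- libraries), 2 to 3 in neuron-like cells, 0 to 1 in glia-like cells (1 as reported) and 4 to 10 in at least 1 cluster (7 as reported, with 4 without Appl- replicate 2), 12 to 15 between transmitter classes (16 as reported) and 0 for the difference between glia-like and neuron-like effects. In glia-like cells the count was 0 with at least 500 genes per cell. Receptor genes higher in neuron-like than in glia-like cells numbered 10 at resolution 0.5 (6 as reported). Without the low-count filter 1 gene differed in effect between glia-like and neuron-like cells (0 as reported).

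*CNMaR* in neuron-like cells went from -0.96 to 0.011 without the T4/T5-like cluster 3. Genes near 0 changed sign, *sNPF-R* (0.0090 as reported) at -0.0058 with total counts, -0.0035 with at least 500 genes and -0.0061 with high doublet scores removed, and *TrissinR* (-0.0095 as reported) at 0.0051 without cluster 3. With a library left out the ranges were -0.019 to 0.038 for *sNPF-R*, -0.13 to 0.057 for *TrissinR* and -0.076 to 0.27 for *FMRFaR*. *Lkr* lost its call in 7 fits besides those with a library left out, with adjusted p = 0.0566 (DESeq2), 0.0526 (total counts), 0.0649 (no filter), 0.0502 (at least 500 genes), 0.0561 (doublet scores), 0.0560 (resolution 0.5) and 0.0527 (resolution 2). *SPR* and *Dh44-R1* passed with DESeq2 (adjusted p = 0.0313 and 0.0144). The causes were not tested. Glia-like cells, with 29 to 82 per library, and genes below 10 CPM limit what could be detected.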

Other observations

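Cells outside the tested classes were compared by level only. In the 131 photoreceptor-like cells *SPR* was at 74.3 CPM (36 UMIs), *Pdfr* at 20.6 CPM (10 UMIs), *AstA-R1* at 16.5 CPM (8 UMIs) and *sNPF-R* at 33.04 CPM (16 UMIs), pooled over libraries. In the 384 hemocyte-like cells *SPR* was at 57.2 CPM (60 UMIs), *Pdfr* at 53.4 CPM (56 UMIs) and *AstA-R1* at 23.9 CPM (25 UMIs). *CrzR* and *Lkr* were at 30.5 CPM (32 UMIs) and 23.9 CPM (25 UMIs) there, against means of 8.29 and 5.28 CPM in neuron-like cells.

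The 88 cells of the neuron-like cluster 37 were too few per library for a test. Their pooled *SPR* was 1599 CPM from 692 UMIs, with the libraries between 1277 and 2523 CPM, and *SIFaR* was 797 CPM, between 575 and 1119 CPM. *SIFaR* was at 675, 1119 and 984 CPM in the control and 639, 575 and 1053 CPM in the Appl- libraries there, which overlapped.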
